A study of Rattus norvegicus with 18 samples.

Results

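The genes that carry the insulin and glucagon signals were followed in rat liver across birth. The set has 8 listed genes: the insulin receptor Insr, the docking proteins Irs1 and Irs2, the phosphoinositide 3-kinase subunit Pik3r1, the kinase Akt2, the transcription factors Foxo1 and Foxo3, and the glucagon receptor Gcgr. They were chosen by gene symbol for their place in the pathway, with earlier results of these data known. Of the 8, 7 were measured among the 18926 genes tested. No transcript cluster, the array's probe set for a gene, carried the symbol Gcgr, so the glucagon receptor was not analysed here. Each of the 7 measured genes had 1 transcript cluster.

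Total RNA from flash-frozen liver of Sprague Dawley rats was hybridised to Affymetrix Rat Transcriptome 1.0 arrays, 3 arrays at each of 6 ages. The postnatal ages were 30 min, 4 h, 12 h, 1 day and 7 days after a birth that was observed directly, and the fetal age was embryonic day 21 (E21), with fetuses delivered by C-section and killed before they breathed. All groups were unmanipulated animals of this 1 strain, housed with free access to food and water. Replicates came from separate dams, 3 per age. The labels do not give the number or sex of the pups in a sample.

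When insulin binds its receptor in hepatocytes, the receptor phosphorylates the docking proteins, which recruit phosphoinositide 3-kinase through its regulatory subunit and so activate Akt. Akt phosphorylates the FoxO factors and keeps them out of the nucleus, which lowers the genes of glucose output that they drive. Glucagon acts the other way, through cyclic AMP, protein kinase A and CREB, and at birth, when the supply of maternal glucose ends, plasma insulin falls and glucagon rises.

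Promoter sequences are shown for Foxo1 and Pik3r1, the 2 of the measured genes that passed at 4 h against E21, and for Insr, whose promoter held matches to the motifs searched. They come from RefSeq on build GRCr8 and run from 250 bases before to 50 bases after the transcription start, read 5′ to 3′ on the strand of the gene. Capitals mark motif matches. Foxo1 lies at chr2:138462724-138463023 on the plus strand, Pik3r1 at chr2:34697611-34697910 on the minus strand, and Insr at chr12:6128754-6129053 on the minus strand.
Foxo1: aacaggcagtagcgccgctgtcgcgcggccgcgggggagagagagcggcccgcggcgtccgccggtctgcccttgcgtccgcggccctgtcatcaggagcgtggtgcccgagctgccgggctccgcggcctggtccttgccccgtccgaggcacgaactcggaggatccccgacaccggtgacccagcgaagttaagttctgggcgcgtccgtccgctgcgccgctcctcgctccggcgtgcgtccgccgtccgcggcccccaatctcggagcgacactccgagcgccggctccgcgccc
Pik3r1: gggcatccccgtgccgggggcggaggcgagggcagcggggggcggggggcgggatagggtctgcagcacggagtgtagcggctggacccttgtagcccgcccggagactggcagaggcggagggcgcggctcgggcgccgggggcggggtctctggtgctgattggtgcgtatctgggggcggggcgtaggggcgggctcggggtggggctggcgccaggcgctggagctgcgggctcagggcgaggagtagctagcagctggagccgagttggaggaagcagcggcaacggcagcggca
Insr: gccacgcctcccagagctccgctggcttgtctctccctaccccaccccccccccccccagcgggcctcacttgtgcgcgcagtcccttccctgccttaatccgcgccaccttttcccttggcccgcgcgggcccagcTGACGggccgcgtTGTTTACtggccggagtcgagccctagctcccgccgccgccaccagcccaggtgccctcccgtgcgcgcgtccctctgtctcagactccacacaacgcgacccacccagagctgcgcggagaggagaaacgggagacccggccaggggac
The motifs searched on both strands were TGACGTCA, a full cyclic AMP response element, its shorter core TGACG, which the full element contains, the forkhead motif GTAAACA and the insulin response sequence CAAAACA. Insr held TGACG 113 bases upstream of the start and GTAAACA on the opposite strand, printed as TGTTTAC, 100 bases upstream. Of 33469 rat promoters of this length, 21.2% held TGACG, 3.78% held GTAAACA, 6.28% held CAAAACA and 1.83% held TGACGTCA. None of the 4 motifs was in the windows of Foxo1, Pik3r1, Irs1 or Akt2, which says only that these letters are not there. Irs2 and Foxo3 were not matched to a promoter entry.

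Values are log2 of the deposited linear intensities. A change is the later age minus the earlier age with the moderated standard error (SE) of limma, n = 3 arrays per age. The threshold was 0.05 for the p adjusted by Benjamini-Hochberg over all genes tested. Deposited intensities ran from 4.24 to 999969 with array medians of 61.9 to 65.5, so the deposited values were alike in overall level. Processing can make medians alike, so this does not show that the RNA was. Levels of different genes are not set against each other. The number of arrays limits the precision. Pancreas markers, taken as silent in liver, gave 165 readings between 3.09 and 6.72 before 7 days, and the lowest of the 126 readings of the measured genes was 8.36. Earlier results of these data had set E21 replicate 1, 30 min replicate 3 and 4 h replicate 3 apart from their ages. At 7 days, replicate 3 had a summed log2 level of pancreas markers of 18.10, against 8.65 and 8.47 on the other 2 arrays of that age. Hepatocyte markers were at a summed log2 level of 21.65 to 21.99 on all 18 arrays, 8 of the 10 listed being measured.

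Of the 7 measured genes, 5 differed over the 6 ages by the limma F test, as did 31.3% of all genes. Irs2 had the widest range of age means among them, 3.42 log2 units (10.7-fold), which was wider than in 98.8% of genes. Foxo3 ranged over 2.07, Irs1 over 1.50, Pik3r1 over 1.32 and Foxo1 over 1.22 log2 units. Insr (0.46, F test adjusted p = 0.487) and Akt2 (0.29, adjusted p = 0.355) did not pass. The median range of the 7 was 1.32, against 0.42 for all genes. Many of all genes are dim: their median log2 level per array was 6.28 to 6.39, within the range of the silent markers. The 7 are brighter, so ranges and shares over all genes are not matched for level. Foxo1 and Pik3r1 were higher at 4 h than at E21, and between 4 h and 12 h 4 of the 7 fell. By 7 days Irs2 and Foxo3 lay well below their fetal level.

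**Figure D1:**
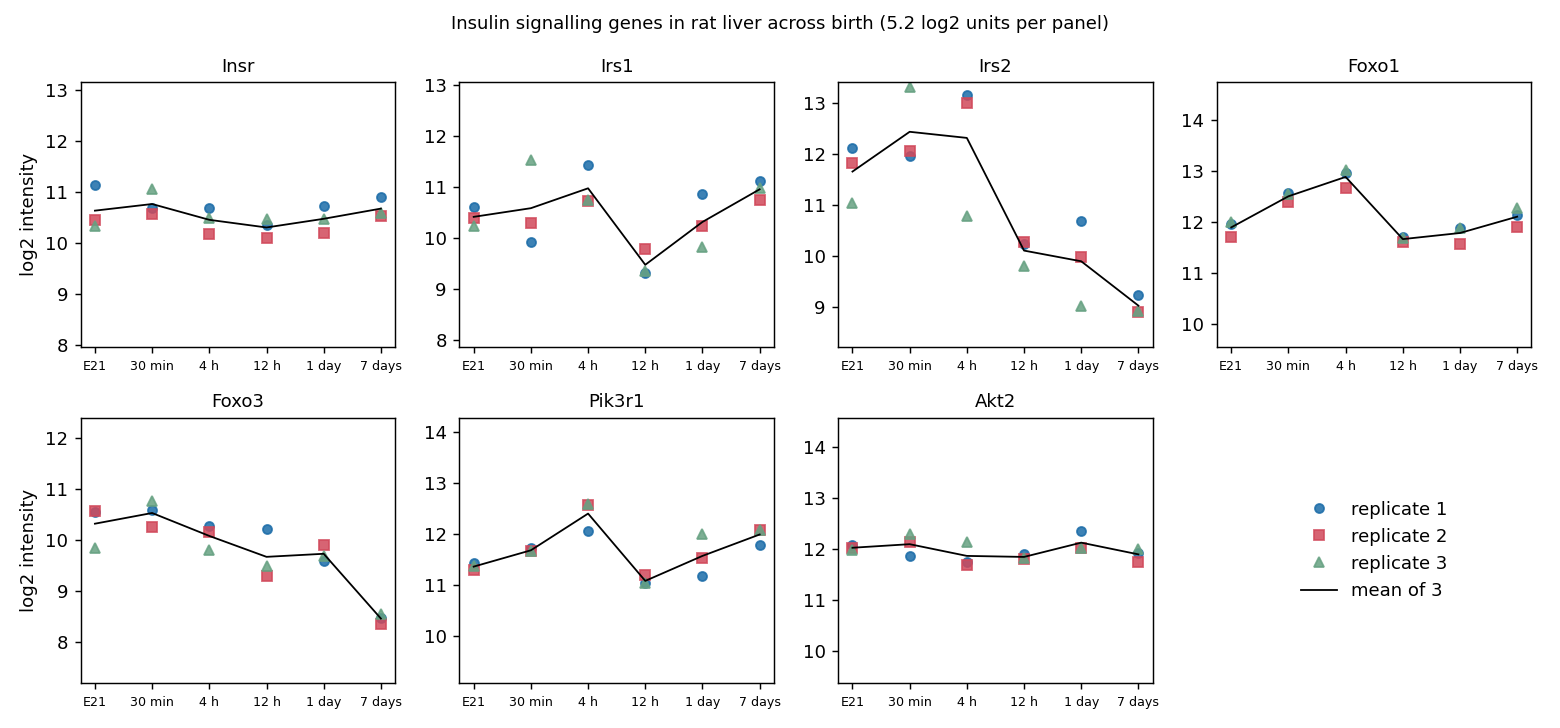
Log2 intensity of each measured gene on every array (points, 3 replicates per age) and the mean of 3 (line) at E21, 30 min, 4 h, 12 h, 1 day and 7 days. All panels span the same number of log2 units, each placed around its own gene. Insr (0.46) and Akt2 (0.29) have the narrowest ranges of age means of the 7, Foxo1 and Pik3r1 peak at 4 h, Irs1 is lowest at 12 h, and Irs2 and Foxo3 are lowest at 7 days.

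Insr, the receptor tyrosine kinase that binds insulin, is transcript cluster TC1200000920.rn.1 on chromosome 12. Its arrays read 11.14, 10.45 and 10.32 at E21, 10.68, 10.56 and 11.05 at 30 min, and 10.68, 10.18 and 10.48 at 4 h. They read 10.34, 10.09 and 10.46 at 12 h, 10.73, 10.20 and 10.47 at 1 day, and 10.90, 10.53 and 10.59 at 7 days. Every neighbouring pair in the order of its age means had overlapping arrays. At 7 days the change from E21 was 0.04 ± 0.21 (limma adjusted p = 0.935), and the widest change from E21, at 12 h, was -0.34 ± 0.21 (adjusted p = 0.485). A p that misses the threshold does not show that the level was constant.

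Irs1, a docking protein phosphorylated by the receptor, is TC0900002338.rn.1 on chromosome 9. Its arrays read 10.60, 10.38 and 10.24 at E21, 9.92, 10.28 and 11.53 at 30 min, and 11.43, 10.73 and 10.74 at 4 h. They read 9.30, 9.77 and 9.34 at 12 h, 10.86, 10.24 and 9.82 at 1 day, and 11.11, 10.75 and 10.98 at 7 days. All 3 arrays of 12 h lay below every array of any other age. Replicate 3 at 30 min was the highest of all 18. Irs1 fell by 1.50 ± 0.34 on the log2 scale between 4 h and 12 h (2.83-fold lower at 12 h, limma adjusted p = 0.0125). That call was lost without 4 h replicate 1 (adjusted p = 0.0684) or 12 h replicate 1 (0.0585). Against E21 the change was -0.94 ± 0.34 at 12 h (adjusted p = 0.142) and 0.54 ± 0.34 at 7 days (0.318), with arrays that did not overlap in either case. In the order of age means the 12 h arrays stood apart from their neighbour, 1 day, and all other neighbours overlapped.

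Irs2, the other main docking protein of hepatocytes, is TC1600001011.rn.1 on chromosome 16. In mouse liver its transcript is known to be high in fasting, when CREB and the FoxO factors are active. Its arrays read 12.11, 11.81 and 11.04 at E21, 11.95, 12.05 and 13.31 at 30 min, and 13.15, 12.99 and 10.78 at 4 h. They read 10.23, 10.26 and 9.80 at 12 h, 10.69, 9.97 and 9.01 at 1 day, and 9.23, 8.90 and 8.92 at 7 days. At 4 h, 2 arrays stood above every E21 array and replicate 3 below all of them. From 12 h on every array was below every E21 array.

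Irs2 fell by 2.63 ± 0.56 on the log2 scale at 7 days against E21 (6.2-fold lower, limma adjusted p = 0.00282). It fell by 2.21 ± 0.56 between 4 h and 12 h (4.63-fold lower at 12 h, adjusted p = 0.0214). The 7 day call held in all 18 fits that left out 1 array. The fall between 4 h and 12 h was -2.97 without 4 h replicate 3 (adjusted p = 0.000798), and it missed the threshold when any of 4 h replicates 1 and 2 or the 12 h arrays was left out (highest adjusted p = 0.11, without 4 h replicate 1). In a fit of 4 h and 12 h alone its adjusted p was 0.0882, and 0.0529 with the replicate number as a block there. The change at 4 h against E21 was 0.66 ± 0.56 (adjusted p = 0.651), and without 4 h replicate 3 it was 1.42 ± 0.45 (0.0774). Without that array, E21 replicate 1 and 30 min replicate 3 it was 1.65 ± 0.41 (0.027). For Irs2, E21 replicate 1 was the highest array of its age and 4 h replicate 3 the lowest of its age. Leaving both out could only widen the change, so the call gained is not further support for a rise. At 12 h and 1 day the changes from E21 were -1.55 ± 0.56 (adjusted p = 0.132) and -1.76 ± 0.56 (0.0857).

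Pik3r1 encodes the regulatory subunit that ties phosphoinositide 3-kinase to the docking proteins, and is TC0200002755.rn.1 on chromosome 2. Its promoter is printed above. Its arrays read 11.44, 11.29 and 11.37 at E21, 11.72, 11.66 and 11.66 at 30 min, and 12.06, 12.57 and 12.58 at 4 h. They read 11.03, 11.19 and 11.03 at 12 h, 11.18, 11.53 and 12.00 at 1 day, and 11.79, 12.08 and 12.08 at 7 days. The 4 h arrays were all above those of E21 and 30 min and overlapped with those of 7 days. All 12 h arrays were below those of E21.

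Pik3r1 rose by 1.04 ± 0.17 at 4 h against E21 (2.05-fold, limma adjusted p = 0.00386). It then fell by 1.32 ± 0.17 between 4 h and 12 h (2.49-fold lower at 12 h, adjusted p = 0.000246). At 7 days it was higher than at E21 by 0.62 ± 0.17 (1.54-fold, adjusted p = 0.0171). The last call was lost without E21 replicate 2 (0.0592), 7 day replicate 2 (0.0649) or 7 day replicate 3 (0.0598). With the replicate number as a block in a fit of E21 and 4 h alone the adjusted p at 4 h was 0.0913, and in the same fit without the block 0.054. Between 4 h and 12 h the call held with the block (0.0176).

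Akt2, the Akt kinase most tied to insulin action on glucose, is TC0100001129.rn.1 on chromosome 1. Its 18 arrays lay between 11.69, at 4 h replicate 2, and 12.35, at 1 day replicate 1. The age means were 12.03 at E21, 12.10 at 30 min, 11.87 at 4 h, 11.85 at 12 h, 12.13 at 1 day and 11.90 at 7 days. Neighbours in the order of these means all overlapped. The change at 7 days against E21 was -0.13 ± 0.14 (limma adjusted p = 0.605), and no comparison of ages passed.

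Foxo1, the FoxO factor that drives genes of glucose output in hepatocytes, is TC0200001128.rn.1 on chromosome 2. Its promoter is printed above. Its arrays read 11.96, 11.71 and 12.00 at E21, 12.57, 12.39 and 12.54 at 30 min, and 12.95, 12.67 and 13.01 at 4 h. They read 11.70, 11.60 and 11.68 at 12 h, 11.88, 11.57 and 11.88 at 1 day, and 12.13, 11.89 and 12.27 at 7 days. All 30 min arrays were above all E21 arrays and all 4 h arrays above all 30 min arrays. The arrays of E21, 12 h and 1 day lay close together, those of 12 h just below those of E21.

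Foxo1 rose by 0.99 ± 0.13 at 4 h against E21 (1.98-fold, limma adjusted p = 0.000887) and fell by 1.22 ± 0.13 between 4 h and 12 h (2.33-fold lower at 12 h, adjusted p = 3.0e-05). Both calls held in all 18 fits that left out 1 array. At 30 min the change from E21 was 0.61 ± 0.13 (adjusted p = 0.302). No gene at all passed between 30 min and E21, so percent called was 0 there, although 1392 genes had an unadjusted p under 0.05 and array weights gave 15 calls. With the replicate number as a block in a fit of E21 and 4 h alone the adjusted p of Foxo1 at 4 h was 0.0575, and in the same fit without the block 0.0456. Of all genes 2 passed with that block, 139 without it, 797 with the block over all 18 arrays and 892 in the fit of all ages without a block. Between 4 h and 12 h the call held with the block (0.0124).

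Foxo3, a FoxO factor with the same core DNA motif, is TC2000000833.rn.1 on chromosome 20. Its arrays read 10.55, 10.56 and 9.84 at E21, 10.58, 10.25 and 10.76 at 30 min, and 10.28, 10.15 and 9.81 at 4 h. They read 10.22, 9.29 and 9.49 at 12 h, 9.59, 9.91 and 9.69 at 1 day, and 8.47, 8.36 and 8.54 at 7 days. The 7 day arrays lay below every other array, and the other 5 ages overlapped in order of their means. Foxo3 fell by 1.86 ± 0.23 on the log2 scale at 7 days against E21 (3.62-fold lower, limma adjusted p = 4.0e-05) and by 1.27 ± 0.23 between 1 day and 7 days (2.42-fold lower at 7 days, adjusted p = 0.00131). Both calls held in all 18 fits that left out 1 array.

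**Figure D2:**
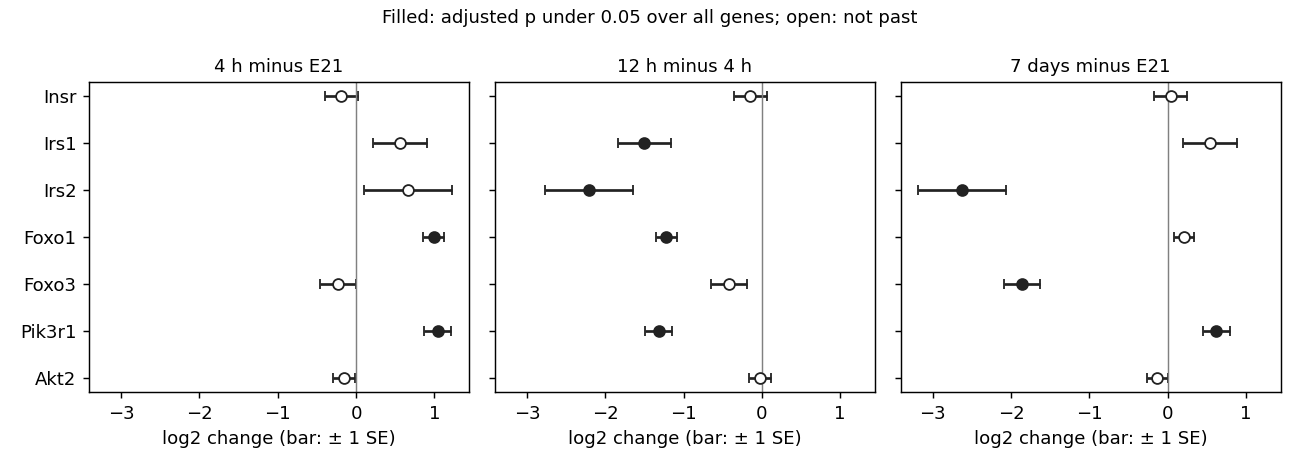
Log2 change of each measured gene (later age minus earlier age, bars ± 1 SE of limma, n = 3 arrays per age) for 4 h minus E21, 12 h minus 4 h and 7 days minus E21. Filled points passed the adjusted threshold of 0.05. Foxo1 (0.99) and Pik3r1 (1.04) are filled at 4 h, 4 genes are filled on the negative side at 12 h minus 4 h, and Irs2 (-2.63), Foxo3 (-1.86) and Pik3r1 (0.62) are filled at 7 days.

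Set against all genes, 2 of 7 were higher and 0 lower at 4 h than at E21, where 4.71% of genes passed, 2.91% higher and 1.81% lower. The median change of the 7 was 0.56, against -0.01 for all genes. Between 4 h and 12 h, 0 were higher and 4 lower, where 8.9% of genes passed, 5.08% higher and 3.82% lower, with medians of -1.22 and 0.01. At 7 days against E21, 1 was higher and 2 lower, where 22.8% passed, 12.8% higher and 10% lower, with medians of 0.04 and 0.01. Between 1 day and 7 days 1 was lower, where 18.2% passed, 8.15% higher and 10% lower. None of the 7 passed at 12 h against E21, where 5.94% of genes passed, 3.86% higher and 2.08% lower. None passed at 1 day against E21 (5.08%, 3.37% higher and 1.71% lower), at 4 h against 30 min (0.983%) or at 1 day against 12 h (0.037%). At an unadjusted p under 0.05 these 4 comparisons held 3, 2, 2 and 2 of the 7. Of all 18926 genes they held 3352, 3331, 2146 and 1213. All these shares include dim genes. In a fit of the 9463 genes above the median level, 984 passed at 4 h against E21. In that fit 1706 passed at 12 h against 4 h and 3838 at 7 days against E21. In each of these comparisons the share of the brighter genes that passed was larger than the share over all genes. At 7 days against E21 the share of the 7 that passed was near that of the brighter genes. The comparisons that share E21 or 4 h arrays are not independent of each other.

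In whole liver, fewer cells of a type and less RNA per cell cannot be told apart. At 4 h the summed log2 level of 10 endothelial markers was 15.23 to 15.49, against 14.44 to 14.99 at E21, and that of 10 macrophage markers 14.77 to 15.17, against 14.18 to 14.56. In each of the endothelial, macrophage and stellate lists 1 of 10 markers was higher at 4 h, as were 2.91% of all genes. The median changes of these lists were 0.44, 0.50 and 0.53. The part of these cells in the change of Foxo1 and Pik3r1 was not tested. On 4 h replicate 3, the array with low Irs2, the median log2 level of the erythroid markers was 12.72, against 14.15 and 14.21 on the other 2 arrays of that age.

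At 7 days all 10 measured erythroid markers had fallen, with a median change of -4.52. Their summed log2 level was 13.28 to 14.45 at 7 days and 17.52 to 18.48 at E21. The fetal liver is a site of red cell formation. Of all genes 10% were lower and 12.8% higher at 7 days than at E21. Endothelial markers were higher for 9 of 10 (median change 1.21), macrophage markers for 8 of 10 (1.49), stellate and mesenchymal markers for 4 of 10 (1.00) and hepatocyte markers for 4 of 8 (0.39). Their part in the 7 day changes of Irs2, Foxo3 and Pik3r1 was not tested.

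Within each array the log2 difference Irs2 minus Irs1 averaged 1.24 ± 0.39 at E21, 1.86 ± 0.15 at 30 min and 1.34 ± 1.16 at 4 h (SD, n = 3). It averaged 0.63 ± 0.26 at 12 h, -0.42 ± 0.35 at 1 day and -1.93 ± 0.11 at 7 days. The 7 day arrays, at -1.89, -1.85 and -2.06, lay below all others, and 4 h replicate 3, at 0.03, stood away from 1.71 and 2.27. Foxo1 minus Foxo3 averaged 1.57 ± 0.53 at E21, 1.97 ± 0.18 at 30 min, 2.79 ± 0.36 at 4 h, 1.99 ± 0.45 at 12 h, 2.04 ± 0.34 at 1 day and 3.64 ± 0.10 at 7 days. Its 7 day arrays lay above all others. The size of such a difference at 1 age depends on the probes, and only its course with age can be read. That course was not tested.

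**Figure D3:**
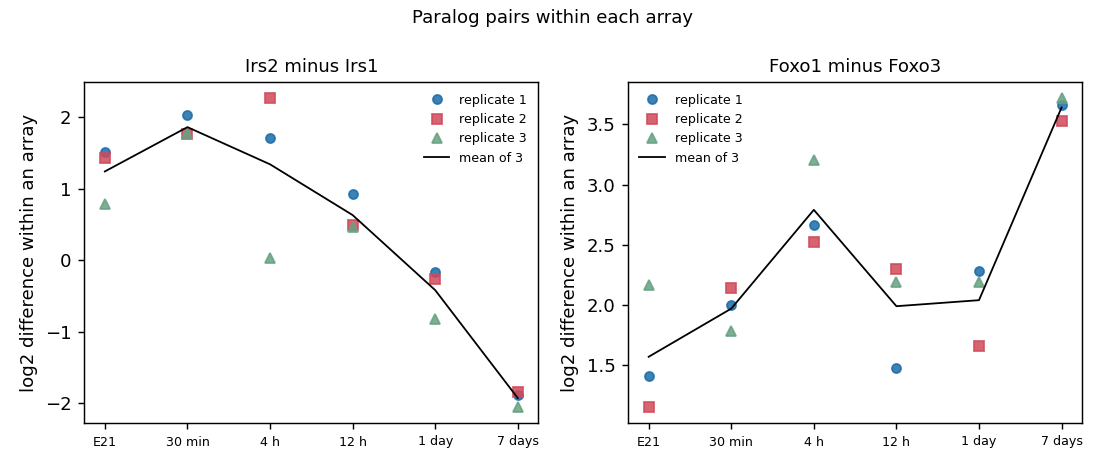
Log2 difference between related genes within each array (points, 3 replicates per age) and the mean of 3 (line) at the 6 ages. Irs2 minus Irs1 reaches its lowest mean, -1.93, at 7 days, where Foxo1 minus Foxo3 reaches its highest, 3.64.

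Across the 18 arrays the log2 levels of Irs2 and Foxo3 correlated at r = 0.82, those of Foxo1 and Pik3r1 at 0.74 and those of Irs1 and Foxo1 at 0.58. The lowest value among the 21 pairs was -0.18, for Pik3r1 and Akt2. These values describe arrays that share ages. The genes whose pattern over the 18 arrays was most like that of each measured gene were Mtss1 for Foxo1 (r = 0.948), Nup188 for Foxo3 (0.958), Ppp1r3g for Irs2 (0.933), Slc28a2 for Pik3r1 (0.880), Phlpp1 for Irs1 (0.858), Rere for Insr (0.815) and Nup98 for Akt2 (0.794). Phlpp1, a phosphatase that removes phosphate from Akt, and Ppp1r3g, a subunit that targets a phosphatase to glycogen, have known roles near the pathway.

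The ligands themselves are made in the pancreas. Ins1 read 4.40 to 6.05 and Gcg 3.99 to 4.57 on 17 arrays, with Gcg at 6.78 on 7 day replicate 3. These Ins1 readings, and those of Gcg on the 17 arrays, were within the range of the silent markers. The incretin receptors Glp1r and Gipr read at most 4.99. Ins2 read 6.93, 6.95 and 7.63 at 7 days and 6.36, 6.65 and 6.78 at 1 day, a change of 0.57 ± 0.17 (limma adjusted p = 0.0295). At 1 day 2 of the 3 arrays lay within the silent range, and with these set to its top Ins2 was at least 1.35-fold higher at 7 days. That call was lost without 7 day replicate 3 (0.133), which carried the pancreas markers, without 1 day replicate 1 (0.121) or without 1 day replicate 2 (0.0535). Igf1, the liver-made growth factor that acts through a receptor akin to that of insulin, read 15.89, 16.46 and 16.09 at 7 days and 13.63, 13.32 and 13.86 at E21. It rose by 2.54 ± 0.42 (5.84-fold, adjusted p = 0.000459). Igf2 stayed between 17.31 and 18.17 and Igf1r between 7.20 and 8.69, and neither passed in any comparison.

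Of 25 measured genes of the insulin signal below the receptor other than the 7, 13 passed the F test, as did 31.3% of all genes. None passed at 30 min. At 12 h 4 were higher and 0 lower than at E21, and at 7 days 5 were higher (1 to 5 when 1 array was left out, 1 without 7 day replicate 1) and 0 lower. Of all genes 5.94% passed at 12 h, 3.86% higher, and 22.8% at 7 days, 12.8% higher. The median change of the list was 0.14 at 12 h and 0.12 at 7 days, against 0.01 for all genes at both ages. Shc1, an adaptor that leads from the receptor to the Ras pathway, read 11.92, 11.63 and 12.28 at 12 h and 10.82, 10.77 and 11.06 at E21. It rose by 1.06 ± 0.16 (2.09-fold, limma adjusted p = 0.00104). Mlst8, a subunit of the mTOR complexes, rose by 0.79 ± 0.11 at 12 h (1.73-fold, adjusted p = 0.000657). Pik3r3, another regulatory subunit of phosphoinositide 3-kinase, rose by 0.92 ± 0.12 at 1 day (adjusted p = 0.000729). Its E21 arrays were all within the silent range, and with these set to the top of that range it was at least 1.28-fold higher at 1 day. Gsk3a, a kinase that Akt inhibits, was higher at 12 h by 0.52 ± 0.12 (adjusted p = 0.0206), a call lost without E21 replicate 2, E21 replicate 3 or 12 h replicate 1 (highest adjusted p = 0.104).

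Of 14 measured inhibitors of the insulin signal, 7 were higher and 2 lower at 7 days than at E21 (4 to 8 higher when 1 array was left out, 4 without E21 replicate 2), and 10 passed the F test. Of the 7, Sh2b2 read within the silent range on all arrays of both ages. Prkce did so on all E21 arrays, and with dim arrays set to the top of that range it was at least 1.04-fold higher. Of all genes 12.8% were higher and 10% lower at 7 days, and 31.3% passed the F test. The list's median change was 0.37, against 0.01 for all genes. Grb10, an imprinted adaptor that binds the receptor and restrains it, read 13.07, 12.86 and 14.13 at 7 days and 16.49, 17.09 and 17.20 at E21. It fell by 3.57 ± 0.39 on the log2 scale (11.9-fold lower, limma adjusted p = 1.3e-05). Its relative Grb14 read 11.78, 13.11 and 11.80 at 7 days and 10.26, 10.04 and 9.98 at E21, a rise of 2.14 ± 0.35 (4.41-fold, adjusted p = 0.000367). So the 2 receptor-binding adaptors moved in opposite directions, and the arrays of the 2 ages overlapped for neither. The Akt phosphatase Phlpp2 fell by 3.15 ± 0.25 on the log2 scale at 7 days (8.85-fold lower, adjusted p = 8.6e-07). Enpp1, a membrane ectoenzyme that can inhibit the receptor, rose by 1.95 ± 0.37 (3.85-fold, adjusted p = 0.00137). These 4 calls at 7 days held in all 18 fits that left out 1 array. The fall of the erythroid markers and the rise of the endothelial and macrophage markers at this age stand beside them, and their part was not tested.

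Of 30 measured genes of the glucagon signal below its receptor, 22 passed the F test, as did 31.3% of all genes. At 4 h 5 were higher and 1 lower than at E21 (0 to 5 higher when 1 array was left out, 0 without E21 replicate 2, and 7 without the 3 arrays that stood apart), where 4.71% of genes passed. At 7 days 8 were higher and 5 lower (5 to 9 higher when 1 array was left out, 5 without E21 replicate 2), where 22.8% of genes passed. Of those lower, Adcy7 read within the silent range on all arrays of both ages. Of those higher, Adcy4, Adcy5 and Pde4b did so on all E21 arrays. The list's median change was 0.10 at 4 h and 0.11 at 7 days, against -0.01 and 0.01 for all genes. Sik1, a kinase gene that cyclic AMP induces through CREB, read 16.01, 15.88 and 10.91 at 4 h and 10.72, 9.04 and 8.99 at E21. The change was 4.68 ± 1.08 (limma adjusted p = 0.0235). It was 6.36 without 4 h replicate 3 (0.000181), and missed the threshold without 4 h replicate 1 or 2 or E21 replicate 2 or 3 (highest 0.126). It also missed it in a fit of E21 and 4 h alone, without the replicate block (0.178) and with it (0.118). Crem, a gene of the CREB family with a cyclic AMP-induced repressor form, read 9.72, 9.47 and 8.20 at 4 h and 7.54, 6.56 and 6.90 at E21, a change of 2.13 ± 0.47 (adjusted p = 0.0201). It was lost in the same 4 leave-one-out fits (highest 0.0992) and in the fit of E21 and 4 h alone, without the block (0.0915) and with it (0.0873). On 4 h replicate 3 the 2 genes, like Irs2, read below the other 4 h arrays.

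Prkar2b and Prkar1b encode regulatory subunits of protein kinase A. Prkar2b read 5.79, 6.05 and 6.23 at 7 days, within the silent range, and 10.54, 10.38 and 10.07 at E21. With the 7 day arrays set to the top of that range it was at least 12.2-fold lower (limma adjusted p = 3.6e-08 for the measured change of -4.31 ± 0.23). Prkar1b read 5.98, 5.36 and 5.87 at 7 days and 7.94, 8.25 and 9.12 at E21, at least 3.29-fold lower (measured change -2.70 ± 0.41, adjusted p = 0.0002). It had already fallen at 12 h, where it was at least 3.26-fold lower than at E21 (measured change -2.03 ± 0.41, adjusted p = 0.00736). Without E21 replicate 3, the highest Prkar1b array of that age, the measured change was -2.36 at 7 days and -1.69 at 12 h. So the bounds of Prkar1b are for the floor only and rest in part on that array. These 3 calls held in all 18 fits that left out 1 array. At 7 days they too stand beside the fall of the erythroid markers, whose part was not tested.

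Among 18 measured FoxO factors and genes known as FoxO targets, without Foxo1 and Foxo3 themselves, 9 passed the F test, as did 31.3% of all genes. At 4 h 3 were higher and 0 lower than at E21 (2 to 5 higher when 1 array was left out, 5 without 4 h replicate 3, and 7 without the 3 arrays that stood apart). Of the 3, Fbxo32 read within the silent range on all E21 arrays. Between 4 h and 12 h 0 were higher and 4 lower. Of all genes 2.91% were higher at 4 h than at E21, and 3.82% were lower at 12 h than at 4 h. Against E21, 0 were higher and 3 lower at 12 h, and 0 higher and 2 lower at 1 day. At 7 days 1 was higher and 5 lower. Of all genes 2.08% were lower at 12 h, 1.71% at 1 day and 10% at 7 days, where 12.8% were higher. The 1 higher at 7 days was Foxa2, which is on the list but is not a FoxO factor. The list's median change was 0.56 at 4 h and -0.46 between 4 h and 12 h, against -0.01 and 0.01 for all genes. Ppargc1a, a coactivator of glucose output and mitochondrial genes, read 13.31, 13.14 and 11.26 at 4 h and 10.27, 8.71 and 8.78 at E21. It fell by 4.85 ± 0.57 between 4 h and 12 h (limma adjusted p = 9.3e-05), to 7.46, 8.05 and 7.64 at 12 h. The rise at 4 h kept its call in all 18 leave-one-out fits (highest adjusted p = 0.0301). It missed the threshold in a fit of E21 and 4 h alone, without the block (0.0854) and with it (0.0734). Sesn1, a stress-induced inhibitor of mTOR signalling, was higher at 4 h by 1.08 ± 0.23 (adjusted p = 0.0164) and fell by 2.67 ± 0.23 between 4 h and 12 h (6.37-fold lower at 12 h, adjusted p = 6.9e-06). The 4 h call of Sesn1 was lost without E21 replicate 2 or 4 h replicate 1 or 2 (highest 0.0852), and in the fit of E21 and 4 h alone without the block (0.0615) and with it (0.11). Klf15, a factor that favours use of amino acids for glucose, read 9.05, 7.86 and 7.59 at E21, and its 12 h arrays lay in the silent range. With these set to the top of that range its mean was 2.72-fold lower at 12 h than at E21. The measured change was -1.87 ± 0.31 (limma adjusted p = 0.00188). It was -1.43 without the 3 arrays that stood apart, E21 replicate 1 among them, so 2.72-fold is a bound for the floor only.

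G6pc1, the catalytic subunit of glucose-6-phosphatase and the last step of glucose output, read 14.06, 11.29 and 13.37 at 7 days and 16.21, 15.15 and 14.71 at E21. The change was -2.45 ± 0.79 (limma adjusted p = 0.0359). It was lost without 7 day replicate 2 (0.187), 7 day replicate 3 (0.0537), E21 replicate 1 (0.142) or E21 replicate 2 (0.0706). Between 1 day and 7 days it fell by 3.49 ± 0.79 on the log2 scale (adjusted p = 0.00599), a call kept in all 18 such fits.

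Of 10 measured genes that insulin induces, among them those of fat synthesis, 4 were lower and 0 higher than at E21 at 12 h (1 to 4 lower when 1 array was left out), 4 lower at 1 day (2 to 4) and 3 at 7 days (1 to 5). Of all genes 2.08% were lower at 12 h, 1.71% at 1 day and 10% at 7 days. The lowest counts came without E21 replicate 2 at 12 h and 1 day and without E21 replicate 3 at 7 days. Their median change was -1.25 at 12 h, -1.55 at 1 day and -0.97 at 7 days, against 0.01, 0.00 and 0.01 for all genes. Scd, the desaturase that makes monounsaturated fatty acids, read 6.31, 6.95 and 6.53 at 1 day and 9.34, 10.88 and 14.91 at E21. With dim arrays set to the top of the silent range its mean was 30.1-fold lower (limma adjusted p = 0.00914 for the measured change of -5.11 ± 1.01). Its 3 E21 arrays were spread widely, and without E21 replicate 3 the measured change was -3.51 (0.0133). So 30.1-fold is a bound for the floor only and rests in part on that array. Acaca, the carboxylase that makes malonyl-CoA, read 9.01, 9.07 and 9.27 at 1 day and 10.54, 11.00 and 11.99 at E21, and fell by 2.06 ± 0.36 (4.17-fold lower, adjusted p = 0.00436), a call kept in all 18 leave-one-out fits.

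Fasn, the fatty acid synthase, read 9.22, 8.27 and 8.35 at 12 h and 10.22, 11.84 and 14.51 at E21, a change of -3.58 ± 0.91 (limma adjusted p = 0.0302). It was -2.42 without E21 replicate 3 (0.117), and the call was also lost without E21 replicate 2 or any of the 12 h arrays. Acly, which supplies cytosolic acetyl-CoA, read 9.61, 9.86 and 10.28 at 1 day and 10.86, 12.14 and 14.07 at E21, a change of -2.44 ± 0.60 (adjusted p = 0.0278). It was -1.58 without E21 replicate 3 (0.083), and the call was lost as well without E21 replicate 2 or any of the 1 day arrays (highest 0.0972). In both genes E21 replicate 3 was the highest array of its age, as in Scd.

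**Figure D4:**
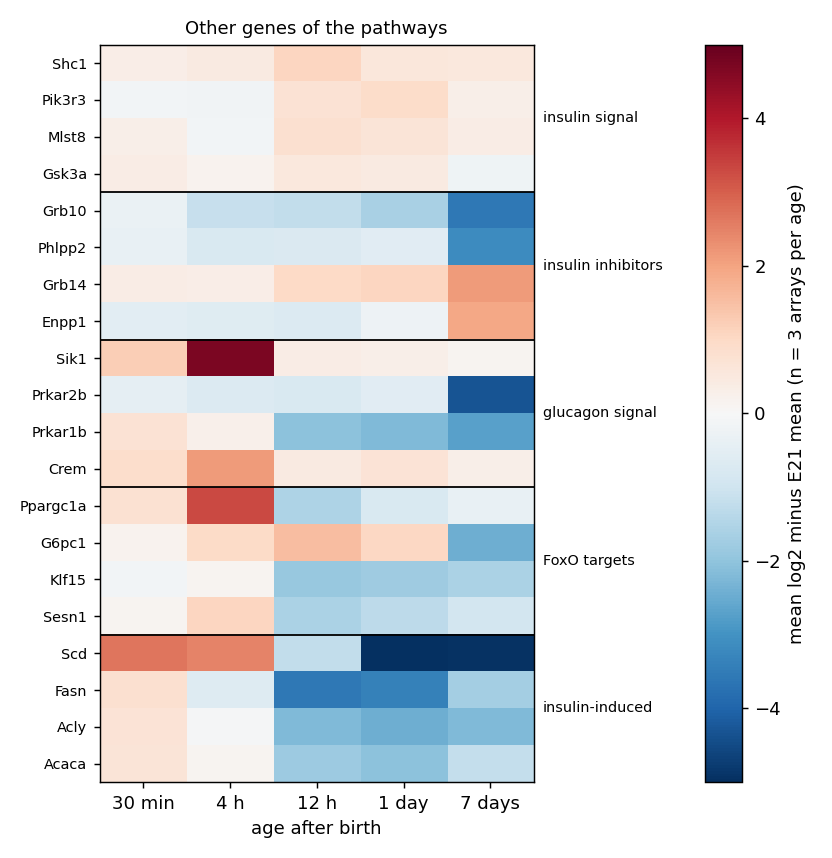
Mean log2 intensity minus the E21 mean (colour, n = 3 arrays per age) of 20 pathway genes in 5 lists at 30 min, 4 h, 12 h, 1 day and 7 days. The scale shows red above and blue below the E21 mean. Sik1 (4.68), Ppargc1a (3.32) and Crem (2.13) are red at 4 h, Grb10 (-3.57) and Prkar2b (-4.31) blue at 7 days, and Scd (-5.11) blue at 1 day.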

How the data were processed

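Expression was measured on 18 arrays, 3 at each of 6 ages. The values deposited by the authors are linear intensities per transcript cluster. Per the submitters' processing notes, RMA and Affymetrix Expression Console 1.0 were used, with no role or order given. Filters and the release of the annotation are not given in the sources used here. Because log2 values are the usual output of RMA, how the linear scale was reached is not known. Folds are those of the deposited scale.

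Of 24753 features, 19837 had 1 gene symbol in the platform annotation, 420 had several and 4496 had none. Features with 1 symbol were kept and the brightest was taken for the 800 genes with several, which gave 18926 genes. The log2 of the deposited intensities, with no added constant, was modelled by age in limma 3.58.1 (R 4.3.3), where 12 residual degrees of freedom joined 3.05 of the prior. Postnatal ages were compared with E21 and with the age before it, two-sided, with Benjamini-Hochberg adjustment over all genes and a threshold of 0.05. The fit was tested on simulated data.

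The measured genes, lists and tests were chosen with earlier results of these data known. Of 174 list entries, 164 were matched. Pathway genes were named by rule, at most 4 a list, as those with the largest called change from E21, and all ligands and related receptors were named. Same-numbered arrays deviated together in 2 comparisons: their deviations from the age means correlated at 0.107 to 0.292 for 4 h against E21 and at 0.15 to 0.298 for 12 h against 4 h, all 3 pairs of each being over 0.1. That pairing comes from the data, not the labels. Values with the number as a block are printed where they change a call in these 2 comparisons. Bounds set arrays below 6.72, the highest reading of the silent markers, to that value. They allow for the floor only, not for the spread of the arrays. The bounds, that block and the removal of 3 arrays together were chosen after seeing the data. In Irs2, Sik1, Crem and Ppargc1a, E21 replicate 1 was the highest array of E21 and 4 h replicate 3 the lowest of 4 h. Leaving both out widens their changes at 4 h, so calls and counts gained that way are not further support. Genome positions were used for the promoters only.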

Additional observations from a re-analysis of the deposited data

How the results depend on the processing

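The 10 calls of the measured genes were refitted under quantile normalization, a filter on dim genes, the mean of a gene's clusters, an added constant of 50, array weights, a trended and robust prior, a replicate block, fits of 2 ages only, and without each array in turn. Of 280 refits, 265 kept the call, 15 lost it and 0 reversed. Many of these refits could hardly change a call. Most fits without 1 array left out an array of neither age compared, so the log2 change stayed the same. The mean of clusters could not alter the 7, each having 1 cluster. The 15 losses all came from fits of 2 ages or fits without an array of the ages compared. The number of the 7 past the threshold at 4 h against E21 was 2, with 1 in a fit of the 2 ages only and 0 with the replicate block there (2 to 2 without 1 array). Irs2 passed as well without the 3 arrays that stood apart, a removal that widens its change. At 12 h against E21 the number was 0, with 1 under array weights, 2 in the fit of 2 ages and 1 with its block (0 to 1). At 1 day against E21 it was 0, with 1 under that block and 1 without the 3 arrays that stood apart (0 to 1). At 4 h against 30 min it was 0, with 1 among genes above the median level and 2 under array weights (0 to 1). At 12 h against 4 h it was 4 (2 to 4 without 1 array), with Irs2 lost in the fit of 2 ages, with and without its block. At 7 days against 1 day it was 1, with 2 under the replicate block over 18 arrays (1 to 2). For 7 days against E21 it was 3 (2 to 3), with Irs1 called as well in the fit of 2 ages, with and without its block. Over all ages it was 5 (4 to 5). At 30 min against E21 and at 1 day against 12 h it was 0 in all these fits. The causes were not tested.

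The number of all genes past the threshold depended more on the fit. At 30 min against E21 it was 0, with 15 under array weights, 8 without E21 replicate 1 and 3 without the 3 arrays. At 4 h against E21 it was 892, with 2244 under array weights, 139 in a fit of 2 ages, 2 with the block in that fit, 797 with the block over 18 arrays and 274 to 1371 without 1 array. At 12 h against 4 h it was 1684, with 3888 under array weights, 1080 in a fit of 2 ages, 927 with its block, 1600 with the block over 18 arrays and 883 at the lowest without 1 array. At 12 h against E21 it was 1124, with 2217 under array weights, 784 in a fit of 2 ages, 304 with its block and 1043 with the block over 18 arrays. At 1 day against E21 it was 961, with 297 in a fit of 2 ages, 55 with its block and 917 with the block over 18 arrays. At 4 h against 30 min it was 186, with 1181 under array weights and 1 in a fit of 2 ages. At 7 days against 1 day it was 3441, with 2583 in a fit of 2 ages, 2205 with its block and 3363 with the block over 18 arrays. In the 7 comparisons other than 4 h against E21 and 12 h against 4 h the numbers were not shown to pair the arrays, so calls lost under a block there are not read as weaker effects. The 3 arrays per age and the probe background, with silent markers at a median of 4.58 and up to 6.72, limit what can be seen in dim genes.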

Other observations

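A pair of further list genes was picked after their values were seen. Srebf1, the factor through which insulin induces genes of fat synthesis, read 7.85, 7.50 and 7.81 at 12 h and 10.54, 10.28 and 10.73 at 4 h. It fell by 2.79 ± 0.52 on the log2 scale between these ages (6.93-fold lower at 12 h, limma adjusted p = 0.0033, n = 3 arrays per age), a call kept in all 18 fits that left out 1 array. At 7 days it read 10.07, 10.70 and 9.28, against 7.18, 7.25 and 9.33 at 1 day, a change of 2.10 ± 0.52 (adjusted p = 0.0107). The arrays of the latest pair of ages overlap, and the call was lost without 1 day replicate 1 (0.0513), 1 day replicate 2 (0.0507) or 7 day replicate 2 (0.0619).

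Igfbp1, a secreted binding protein of insulin-like growth factors whose gene insulin represses through Foxo1, read 18.11, 18.02 and 18.60 at 7 days and 19.71, 19.36 and 19.24 at E21. The change was -1.19 ± 0.33 (2.28-fold lower, limma adjusted p = 0.015), and it missed the threshold without E21 replicate 1 (0.064) or 7 day replicate 2 (0.0623). Its arrays read 19.93, 19.93 and 19.50 at 4 h, near the highest deposited intensity of 999969. That is only the largest value in the data, and no upper limit of the scale is given. Whether a rise of Igfbp1 at 4 h was measured in full is not known.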
